A study of Caenorhabditis elegans with 6 samples.

Results

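The GATA factor genes of gut and epidermis, 8 in all, were followed in *C. elegans*, in RNA libraries of newly hatched L1 larvae, 4 that act in the gut lineage (*elt-2*, *elt-7*, *end-1* and *end-3*) and 4 that act in the epidermis (*elt-1*, *elt-3*, *egl-18* and *elt-6*). They were taken by name and not by their values, and all 8 were found among the 20351 genes of the count table. The larvae came from the wild-type strain N2. Young adults were fed for 24 hours with bacteria that make double-stranded RNA against *elt-2*, or with bacteria that carry the empty vector, and their embryos were released by bleaching and left to hatch overnight in buffer without food. RNA was taken from whole larvae, and 3 libraries per condition carry the letters A, B and C. A library thus holds every tissue at once and pools many animals. The libraries are called control A to C and RNAi A to C after their labels. The libraries held between 13700707 and 22124319 counts, and in every library the top 100 genes held 79.5% to 84.7% of them. The libraries were 3SEQ libraries, in which each transcript is read near its 3' end, so a count depends little on transcript length and levels of different genes can be set side by side.

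GATA factors are zinc finger proteins that bind DNA at sites with the core letters GATA. In the worm embryo the gut arises from a single founder cell, in which maternal SKN-1 turns on the MED factors and these turn on *end-1* and *end-3*. The END proteins act briefly and hand over to ELT-2 and ELT-7, which stay on in the gut, activate the genes of digestion and the brush border, and keep their own expression going. In the skin the chain has a similar shape. ELT-1 specifies the epidermis, ELT-3 acts after it in the main body epidermis, and EGL-18 and ELT-6 maintain the seam cells, the stem-like cells of the epidermis.

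In the annotation of assembly WBcel235 all 8 genes are protein-coding and lie on the forward strand. *elt-2* (C33D3.1) spans bases 10481240 to 10483441 of chromosome X, and *elt-3* (K02B9.4) spans 13934874 to 13941216 of the same chromosome. *elt-7* (C18G1.2) covers 4770670 to 4773086 of chromosome V. *end-1* (F58E10.2, 13985128 to 13987074) and *end-3* (F58E10.5, 14014695 to 14015980) are near each other on chromosome V. *elt-1* (W09C2.1) is on chromosome IV from 9614995 to 9620280. *egl-18* (F55A8.1, 1902322 to 1917840) and *elt-6* (F52C12.5, 1917977 to 1921643) are direct neighbours on chromosome IV, with a gap of 137 between the annotated end of the first and the start of the second. The count table itself carries no coordinates, and its authors' genome build is not given in the sources used here.

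The epidermal factor *egl-18* was the most abundant of the 8 genes in control larvae. Its level was 23.5 ± 5.80 CPM (SD, n = 3), where CPM is the count scaled to a common library total (counts per M reads) after TMM normalization, edgeR's correction for libraries of unlike composition. The next level was that of *elt-7*, with 9.27 ± 4.56 CPM (SD, n = 3), and then *elt-6*, with 8.11 ± 3.56 CPM (SD, n = 3). The *elt-7* and *elt-6* levels did not separate, since *elt-7* was above *elt-6* in 2 of the 3 control libraries. A second tier held *elt-3* at 2.81 ± 0.603 CPM, *elt-1* at 2.59 ± 1.42 CPM and *elt-2* at 2.18 ± 0.975 CPM (SD, n = 3 each), and the ranges of neighbours within this tier overlapped. The factors of the early gut founder cell were lowest, *end-1* at 0.322 ± 0.113 CPM and *end-3* at 0.0486 ± 0.0429 CPM (SD, n = 3 each). Among all 10063 genes tested, the share with a lower mean control CPM was 87.2% for *egl-18*, 73.5% for *elt-7*, 70.7% for *elt-6* and 35.5% for *elt-2*. In a whole-larva library such a level mixes how many cells express a gene with how much RNA each cell holds, and fewer cells of a type cannot be told apart from less RNA per cell.

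**Figure D1:**
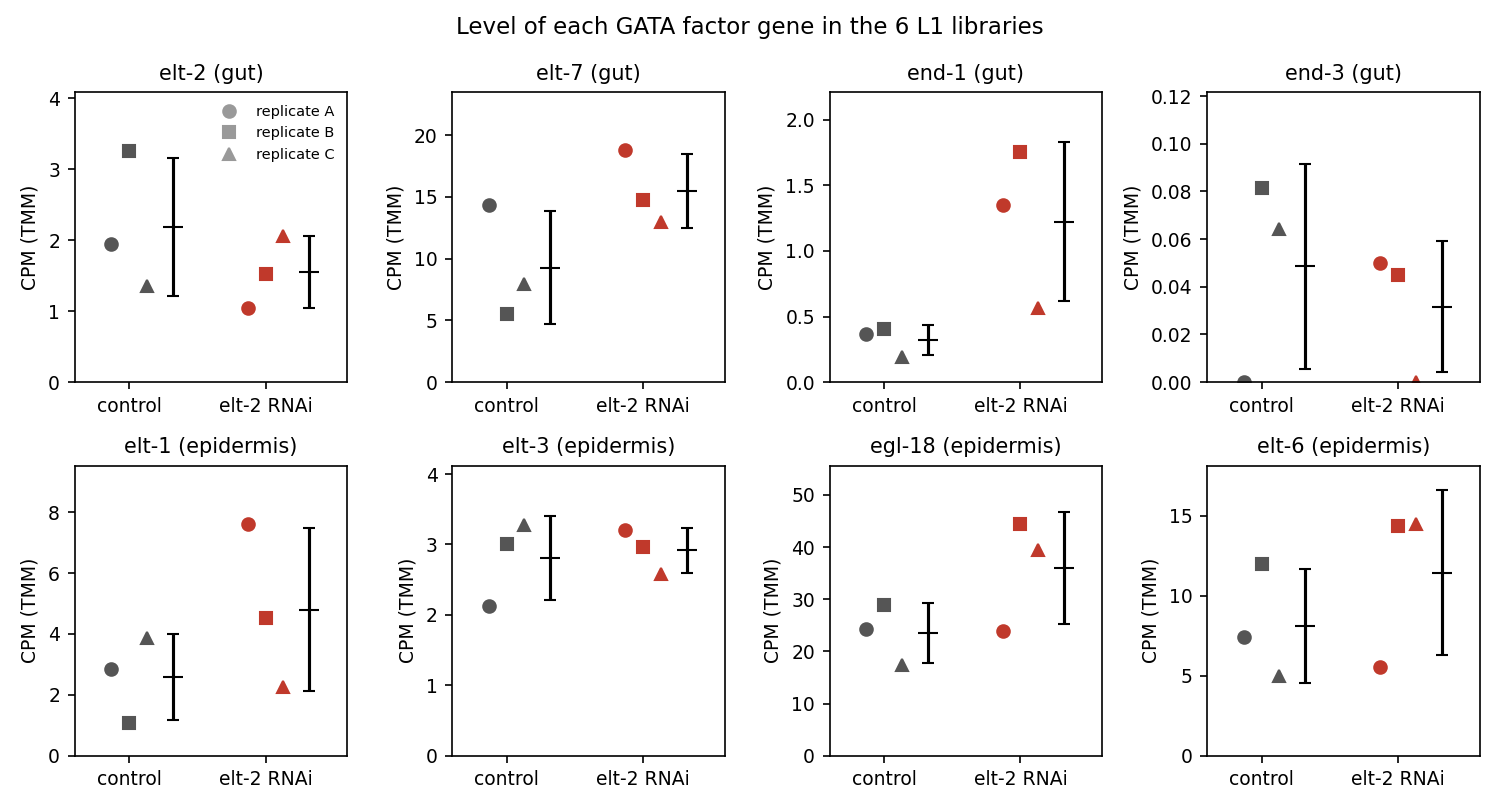
CPM after TMM normalization (vertical axes, each from 0) of the 8 genes in the control libraries (grey) and the libraries labelled *elt-2* RNAi (red), with a symbol per replicate letter and a bar for the mean and SD of 3 libraries. The groups overlap for every gene shown but *end-1*, whose control values reach 0.407 CPM and whose other values start at 0.563 CPM.

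The first gene examined was *elt-2*, the target of the RNAi and the main activator of gut genes after the embryo. Control A, B and C gave 32, 40 and 21 *elt-2* counts, and RNAi A, B and C gave 21, 34 and 44. In CPM these were 1.95, 3.26 and 1.35 against 1.05, 1.53 and 2.06. The groups overlapped, with the highest value in control B and the lowest in RNAi A. The log2 fold change was -0.48 (standard error 0.46), and its 95% interval ran from -1.49 to 0.53 (adjusted p = 0.660, edgeR's quasi-likelihood test). In these libraries the interval of the *elt-2* level after RNAi therefore ran from 0.355 to 1.44 times the control level. Where the RNAi construct lies relative to the 3' end reads is not given in the sources used here, so the counts may not stand for intact *elt-2* mRNA. Counting error alone is wide at this depth: 40 counts have an exact Poisson 95% interval of 28.6 to 54.5. No fall of its own target could be detected in the counts of these RNAi libraries. The study reported a knockdown of *elt-2* RNA in L1 larvae by qRT-PCR and an arrest of larval development after the RNAi. Those data were not analysed here. Of 16 intestinal genes described further on, 14 had a negative log2 fold change in the same libraries and 5 were called lower. Of all 10063 genes tested, 4660 had a negative value and 2.61% were called lower. The intestinal list was chosen with earlier results of these libraries known, so its direction is no separate evidence. Scaled by library size alone, the mean was 1.85 ± 0.587 CPM in control and 1.73 ± 0.264 CPM in the other libraries (SD, n = 3 each), with a log2 fold change of -0.09.

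The second gut factor, *elt-7*, works alongside *elt-2* and shares many of its targets. Its counts were 236, 68 and 123 in control A, B and C, against 375, 328 and 276 in RNAi A, B and C. The CPM values were 14.4, 5.53 and 7.91 against 18.8, 14.7 and 12.9. Control A lay inside the range of the RNAi libraries, and control B and C lay below it. Its log2 fold change of 0.74 (standard error 0.44) had a 95% interval from -0.23 to 1.71 (adjusted p = 0.468, edgeR's quasi-likelihood test). The test did not call *elt-7*, and the interval holds values from a slightly lower level, 0.853 times that of control, to 3.26 times. The control replicates alone spanned a factor of 2.59, wider than the factor of 1.45 among the RNAi replicates.

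The largest difference among the 8 genes was that of *end-1*, which in the embryo starts the gut program before *elt-2*. Only 6, 5 and 3 counts fell on it in control A, B and C, against 27, 39 and 12 in RNAi A, B and C. The CPM values were 0.365, 0.407 and 0.193 against 1.35, 1.75 and 0.563. All 3 RNAi libraries were above all 3 control libraries, with RNAi C closest to them. This gave a log2 fold change of 1.92 (standard error 0.59, 95% interval 0.62 to 3.22; unadjusted p = 0.00803, adjusted p = 0.164, edgeR's quasi-likelihood test), so *end-1* was not called at the false discovery rate of 10%. Of all genes tested, 4.33% were higher and 10.2% lower at an unadjusted p under 0.05, while 7.08% had RNAi values all above and 10.9% all below the control values. The gene was kept by the expression filter only through its RNAi libraries, where RNAi C, at 0.542 CPM by library size, was just above the filter's limit of 0.538 CPM. A gene kept in that way has to be higher in that group, and without RNAi B it was not kept at all.

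Whether *end-1* was called depended on how the counts were treated. Scaled by library size, its log2 fold change was 2.36 (adjusted p = 0.0992, same edgeR test, with 0.517% of all genes called higher). The DESeq2 Wald test gave 1.93 (adjusted p = 0.0899, with 0.894% called higher). With every gene of at least 1 count tested, edgeR gave 1.96 (adjusted p = 0.0545, with 1.37% of 17388 genes called higher). Each of these 3 called *end-1* at a false discovery rate of 10%, and over all alternatives with a value its adjusted p ran from 0.0545 to 0.462. The neighbour *ric-7* lies 90 bases from *end-1* on the opposite strand, and whether the counting used strand is not given in the sources used here. *ric-7* had 59, 84 and 65 counts in control A, B and C, against 59, 51 and 140 in RNAi A, B and C. The part of *ric-7* reads in the *end-1* values was not tested.

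The partner of *end-1* in the founder cell, *end-3*, was close to absent. Control A, B and C held 0, 1 and 1 counts of it, and RNAi A, B and C held 1, 1 and 0. All 6 values lie under the floor of 3 counts per library, which corresponds to between 0.136 and 0.219 CPM by library size. In the main fit *end-3* was therefore not tested, and no fold is given. Genes of unhatched embryos and oocytes were examined beside *end-1*. Their summed level over 9 genes was 26.2 to 46.3 CPM in control and 33.8 to 175 CPM in the RNAi libraries. RNAi B was highest and RNAi C lowest among the latter, as for *end-1*. Among the controls the sum was highest in control C, where *end-1* was lowest, at 0.193 CPM. Most of that sum came from a single gene, *ceh-51*, a factor of the early mesoderm, with 397, 326 and 674 control counts and 1289, 3786 and 665 RNAi counts (adjusted p = 0.304, edgeR's quasi-likelihood test; chosen for mention after its values were seen). Of the 9 genes, 3 passed the filter and 0 were called by edgeR or by DESeq2, although both tests put 1 of them higher at an unadjusted p under 0.05, as edgeR did for 4.33% of all genes. *tbx-35* was at 0 in every library. The eggshell gene *cpg-1* had 1.03 ± 0.573 CPM in control and 1.02 ± 0.659 CPM in the RNAi libraries (SD, n = 3 each). The part of embryo RNA in the *end-1* values was not tested.

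Among the epidermal factors, *elt-1*, which specifies the epidermis in the embryo, varied most. Counts were 47, 13 and 60 in control A, B and C, against 152, 101 and 48 in RNAi A, B and C. In CPM these were 2.86, 1.06 and 3.86 against 7.61, 4.54 and 2.25. RNAi A and B were above all controls, and RNAi C was below control A and C. The log2 fold change was 0.88 (standard error 0.55, 95% interval -0.34 to 2.09, adjusted p = 0.496, edgeR's quasi-likelihood test). Over the 6 libraries the highest value was 7.20 times the lowest, the widest spread among the 7 tested members but for *end-1*.

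The body epidermis factor *elt-3* was the steadiest of the tested members after TMM normalization. Its counts were 35, 37 and 51 in control A, B and C, against 64, 66 and 55 in RNAi A, B and C. The CPM values were 2.13, 3.01 and 3.28 against 3.21, 2.97 and 2.58, and the RNAi range lay inside the control range. The log2 fold change was 0.06 (standard error 0.36, 95% interval -0.73 to 0.85, adjusted p = 0.957, edgeR's quasi-likelihood test). The highest of the 6 values was 1.54 times the lowest. By library size *elt-3* ran from 1.86 to 4.45 CPM and *elt-2* from 1.19 to 2.34 CPM, so *elt-3* was not the steadiest under that scaling. With library size as the scaling the log2 fold change was 0.49, close to the median of all genes under that scaling, 0.42.

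The seam cell factor *egl-18* had 398, 356 and 271 counts in control A, B and C, against 477, 990 and 842 in RNAi A, B and C. The CPM values were 24.2, 29.0 and 17.4 against 23.9, 44.5 and 39.5. RNAi B and C were above all controls, and RNAi A lay inside the control range. The log2 fold change was 0.61 (standard error 0.43, 95% interval -0.35 to 1.57, adjusted p = 0.554, edgeR's quasi-likelihood test). Scaled by library size, the RNAi values of *egl-18* (33.2, 50.6 and 38.1 CPM) were all above the control values (29.0, 17.8 and 15.4 CPM), as for 9.4% of all genes tested under that scaling, where 6.25% were all below.

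The neighbour *elt-6*, which acts redundantly with *egl-18*, had 122, 147 and 77 counts in control A, B and C, against 110, 319 and 309 in RNAi A, B and C. Its CPM values were 7.42, 12.0 and 4.95 against 5.51, 14.3 and 14.5. RNAi B and C were again the highest of the 6 libraries, and RNAi A lay within the control range. The log2 fold change was 0.50 (standard error 0.49, 95% interval -0.57 to 1.57, adjusted p = 0.672, edgeR's quasi-likelihood test).

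RNAi and control libraries were compared in a single fit on all 10063 genes that passed the filter, 7 of the 8 GATA factor genes among them. Of all genes tested, 2.81% were called at a false discovery rate of 10%, 263 (2.61%) lower and 20 (0.199%) higher, and 14.5% had an unadjusted p under 0.05. Of the 7 GATA factor genes, edgeR called 0, where 1 (*end-1*) had an unadjusted p under 0.05, and the DESeq2 Wald test called 1, again *end-1*. Of the 3 gut factors that passed, *elt-2* had a negative log2 fold change and *elt-7* and *end-1* had positive ones. Their median of 0.74 includes *end-1*, which was kept only through the libraries where it is high, so nothing is read from it, and the other 2 values, -0.48 and 0.74, lie on both sides of 0. All 4 epidermal factors had positive values, with a median of 0.56. The median of all genes tested was 0.06. With library size as the scaling the medians were 0.92 for the epidermal factors and 0.42 for all genes, so the values move with the scaling. The signs of all 7 fold changes were the same under TMM, DESeq2 size factors and library size.

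**Figure D2:**
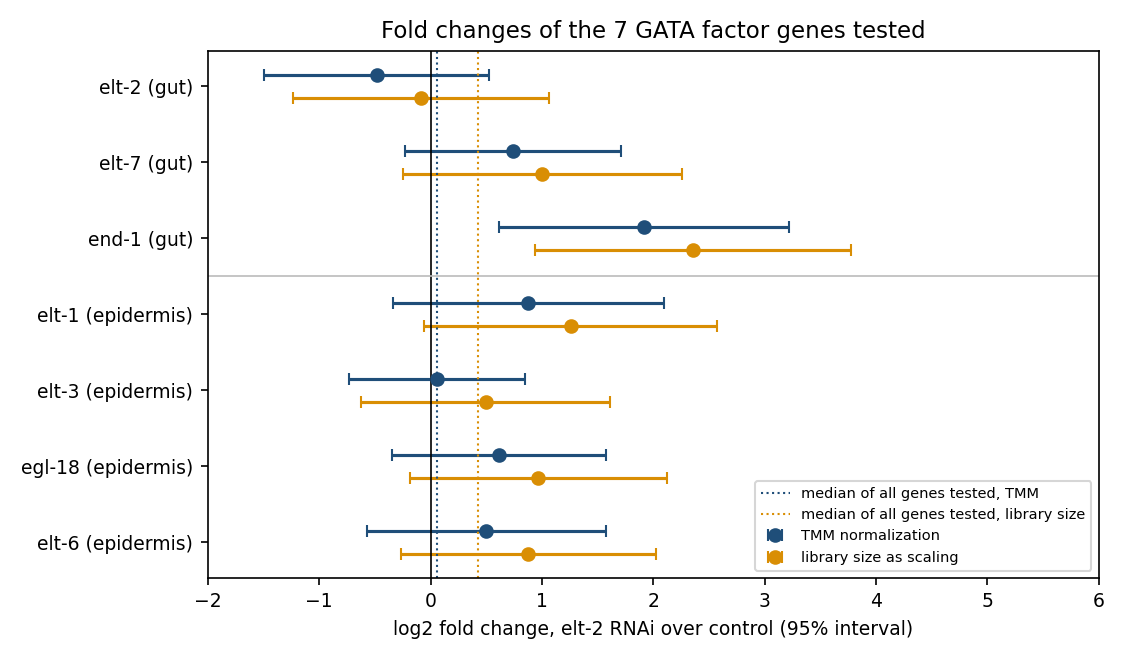
Log2 fold changes (horizontal axis, RNAi over control) with 95% intervals for the 7 GATA factor genes tested by edgeR, after TMM normalization (blue) and with library size as the scaling (orange). Dotted lines mark the median of all genes tested, 0.06 and 0.42, and *end-1* is the only gene whose interval lies wholly above 0.

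Because the libraries differ so much in composition, the members were also compared with each other inside each library, where no scaling enters. Reads on the 4 gut factors made up 31.3%, 17.1% and 24.4% of the reads on all 8 genes in control A, B and C, and 34.6%, 21.4% and 20.9% in RNAi A, B and C. The exact binomial 95% interval was 14.3% to 20.2% for control B and 31.9% to 37.3% for RNAi A, and such intervals cover counting error only. The lowest and the highest shares were thus in libraries of different groups, while the other libraries lay between them in mixed order. The mean log2 ratio of gut to epidermal reads was -1.68 ± 0.573 in control and -1.57 ± 0.564 in the RNAi libraries (SD, n = 3 each), a difference of 0.11. That difference is smaller than the spread between replicates. Its direction also turned when single libraries were left out, with -0.19 without control B and -0.21 without RNAi A, while it was 0.38 without control A.

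Within the gut group the make-up varied more. *elt-2* gave 11.7%, 35.1% and 14.2% of the gut factor reads in control A, B and C and 4.95%, 8.46% and 13.3% in RNAi A, B and C. RNAi A and B were below all controls, and RNAi C, at 13.3%, was above control A. There were 7.38, 1.70 and 5.86 *elt-7* reads for each *elt-2* read in control A, B and C, and 17.9, 9.65 and 6.27 in RNAi A, B and C. The groups overlapped through RNAi C and control A. *end-1* gave 2.19%, 4.39% and 2.03% of the gut factor reads in control and 6.37%, 9.70% and 3.61% in the RNAi libraries, so RNAi C fell between control A and control B here, although the CPM values of *end-1* did not overlap.

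The neighbours *egl-18* and *elt-6* kept a steadier proportion. There were 3.26, 2.42 and 3.52 *egl-18* reads for each *elt-6* read in control A, B and C and 4.34, 3.103 and 2.72 in RNAi A, B and C. Over the 6 libraries this ratio spanned a factor of 1.79, less than the CPM of either gene alone, which spanned 2.55 for *egl-18* and 2.93 for *elt-6*. The ratio of *elt-7* to *elt-2* spanned a factor of 10.5 over the same libraries, and that of *elt-1* to *elt-3* spanned 6.76. These 2 ratios rest on fewer counts, so counting error widens them more. *elt-2* had 21 to 44 counts a library, *elt-1* 13 to 152 and *elt-3* 35 to 66. *elt-6* had 77 to 319 and *egl-18* 271 to 990. *elt-2* is also the target of the RNAi.

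**Figure D3:**
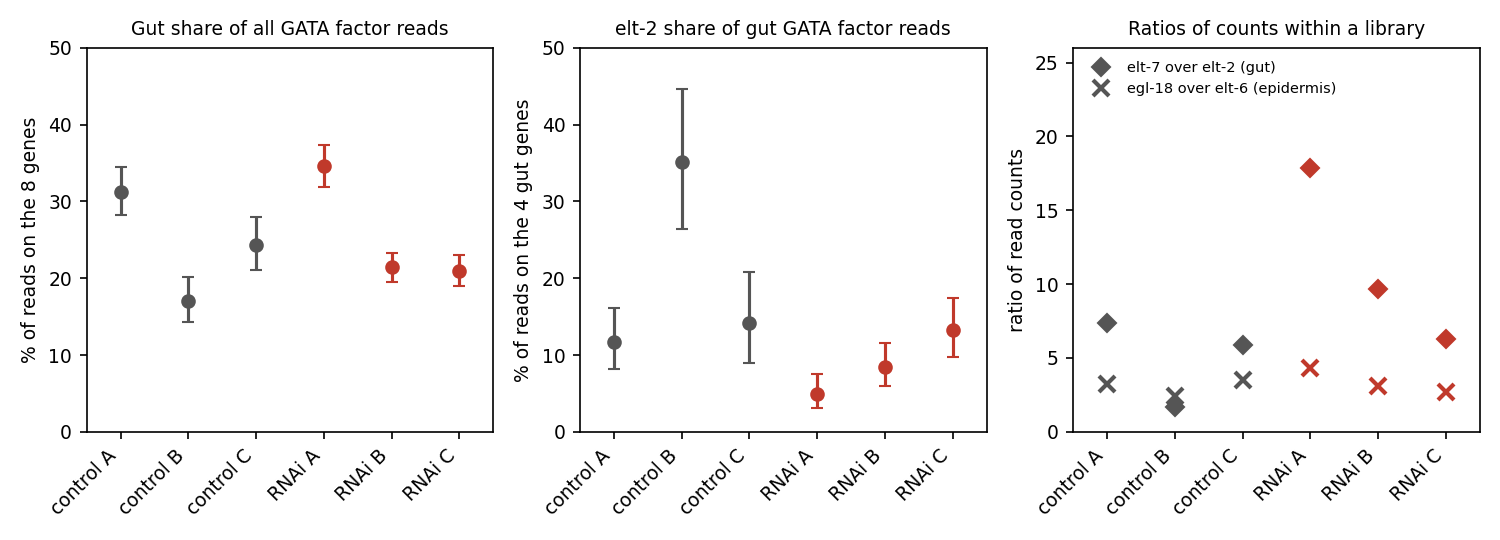
Comparisons inside each library (horizontal axes, control in grey and libraries labelled *elt-2* RNAi in red): percent of reads on the 8 genes that fall on gut factors, percent of gut factor reads that fall on *elt-2* (points with exact binomial 95% intervals), and ratios of counts. The *elt-7* to *elt-2* ratio (diamonds) runs from 1.70 to 17.9, and the *egl-18* to *elt-6* ratio (crosses) from 2.42 to 4.34.

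Genes that act before the gut factors were present at very different levels. The maternal factor gene *skn-1* had 11.7 ± 2.06 CPM in control and 9.42 ± 1.22 CPM in the RNAi libraries (SD, n = 3 each), a log2 fold change of -0.31 (adjusted p = 0.717, edgeR's quasi-likelihood test). Its targets *med-1* and *med-2*, nearly identical copies whose reads a counting of unique matches could lose, were at 0 counts in all 6 libraries. The last worm GATA gene examined, *elt-4*, a short relative of *elt-2*, had 7, 8 and 13 counts in control A, B and C, against 8, 22 and 5 in RNAi A, B and C. Its log2 fold change was -0.22 with TMM and 0.20 with library size, and it was not called. The other genes of the upstream list include parts of the Wnt pathway, which separates the gut founder cell from its sister, and none was called. *pop-1*, the pathway's nuclear factor, had 65.7 ± 36.3 CPM in control and 132 ± 67.7 CPM in the RNAi libraries. *sys-1*, its beta-catenin partner, had 1.63 ± 0.758 against 3.49 ± 0.930 CPM, and the ligand gene *mom-2* had 3.24 ± 1.70 against 7.28 ± 1.72 CPM (SD, n = 3 each).

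Of the 8 genes upstream of the gut factors (*skn-1*, *pop-1*, *sys-1*, *wrm-1*, *lit-1*, *mom-2*, *apr-1* and *pie-1*), 0 were called by edgeR or DESeq2, although both tests put 2 higher at an unadjusted p under 0.05, *sys-1* and *mom-2* in edgeR's test, which did so for 4.33% of all genes. The log2 fold changes of the other 4 were 0.72 for *wrm-1*, 0.38 for *lit-1*, 0.37 for *apr-1* and -0.25 for *pie-1*, the regulator that keeps germ cell precursors silent. The median of the 8 was 0.55, against 0.06 for all genes tested. *wrm-1* had 18, 6 and 9 counts in control A, B and C, against 24, 34 and 19 in RNAi A, B and C. It was kept by the expression filter only through its RNAi libraries, so nothing is read from that median.

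Genes of the differentiated intestine, many of them known targets of ELT-2, were mostly lower in the RNAi libraries, with negative log2 fold changes for 14 of 16. The 2 with positive values were *ges-1*, at 0.15, and *pho-1*, at 0.11. *ges-1* had 1.94 ± 0.748 CPM in control and 2.16 ± 0.167 CPM in the RNAi libraries (SD, n = 3 each). Of these 16 genes, all of which passed the filter, edgeR called 5 lower and 0 higher, where 10 were lower and 0 higher at an unadjusted p under 0.05, and DESeq2 called 7 lower and 0 higher. The median log2 fold change was -1.16, against 0.06 for all genes tested, and 2.61% of all genes were called lower. *asp-3*, an aspartyl protease of the gut, fell from 38.4 ± 11.8 to 3.80 ± 1.21 CPM (log2 fold change -3.34, adjusted p = 0.0116). The cysteine protease *cpr-6* fell from 27.0 ± 5.94 to 4.76 ± 1.96 CPM (-2.50, adjusted p = 0.0241), and *vha-6*, the gut subunit of the proton pump, from 6.78 ± 2.43 to 1.35 ± 0.558 CPM (-2.32, adjusted p = 0.0378). The lysozyme gene *lys-8* fell from 20.02 ± 7.80 to 5.90 ± 1.16 CPM (-1.76, adjusted p = 0.0862; SD, n = 3 and edgeR's quasi-likelihood test throughout). *mtl-2*, a gut metallothionein, had 17, 13 and 29 control counts and 0, 1 and 0 in the RNAi libraries, at least 9.29-fold lower against the floor of 3 counts per library. *mtl-2*, among the 5 called, was kept by the expression filter only through its control libraries. A gene kept in that way has to be lower in the RNAi libraries, so its call is no separate result. *pgp-1*, among the 10 but not called, was also kept only through its control libraries. It had 11, 26 and 21 control counts and 5, 12 and 6 in the RNAi libraries, so its low unadjusted p is no separate result either. With library size as the scaling, 4 of the 16 were called lower. This list was chosen with earlier results of these libraries known, and its direction is no separate evidence.

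Set against these genes, reads of the gut factors took a larger place in the RNAi libraries. Such a ratio also rises when reads on the intestinal genes fall. Those reads were 9219, 16909 and 9837 in control A, B and C and 2119, 4188 and 9053 in RNAi A, B and C. For every 1000 reads on the 16 intestinal genes there were 29.7, 6.74 and 15.05 reads on the 4 gut factors in control A, B and C, and 200.1, 96.0 and 36.7 in RNAi A, B and C. For *elt-7* these were 25.6, 4.02 and 12.504 against 177, 78.3 and 30.5. For *elt-2* itself there were 3.47, 2.37 and 2.13 against 9.91, 8.12 and 4.86. In all 3 measures the groups did not overlap, and RNAi C was the RNAi library nearest to control. The *elt-2* counts themselves overlapped, at 32, 40 and 21 against 21, 34 and 44. Because the list was chosen with its fall in these libraries known, a gap in these ratios is not read as a result about the factors. The protease *asp-1* and the brush border actin *act-5* gave most of the intestinal reads in every control library. Without them the numbers for *elt-2* were 13.8, 17.1 and 5.45 against 15, 25.7 and 18.7, which overlapped, while those for *elt-7* were 102, 29.1 and 31.9 against 268, 248 and 117 and did not.

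**Figure D4:**
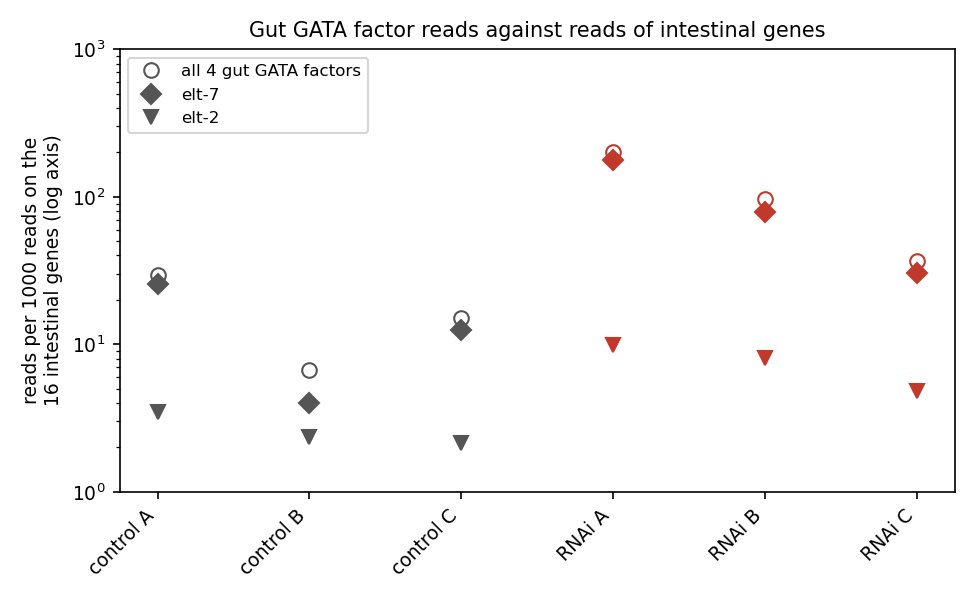
Reads on the 4 gut GATA factors together, on *elt-7* and on *elt-2* for every 1000 reads on 16 intestinal genes (vertical axis, log scale) in each library, control in grey and libraries labelled *elt-2* RNAi in red. The sum runs from 6.74 to 29.7 in control and from 36.7 to 200.1 in the RNAi libraries. The ratio also rises when reads on the 16 genes fall.

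Genes of the epidermis were examined in the same way. Of 20 genes on the list 18 were matched and 17 passed the filter. Of these 1 had a negative and 16 had a positive log2 fold change, with a median of 0.68, where 5403 of all 10063 genes were positive with a median of 0.06, and edgeR and DESeq2 called 0. At an unadjusted p under 0.05, edgeR had 1 lower and 1 higher and DESeq2 had 1 lower and 2 higher, beside 10.2% lower and 4.33% higher of all genes in edgeR's test. The 1 higher in edgeR's test was *nhr-23*. *nhr-23*, *rnt-1* and *grh-1* passed the limit of the expression filter in every RNAi library but in no control library except control A. Genes kept in that way tend to be higher in the RNAi libraries, so nothing is read from the share of positive values or from the median. The largest differences were those of *grd-10*, a hedgehog-related gene of seam cells, and *sqt-3*, a cuticle collagen gene. *grd-10* had 51.2 ± 28.8 CPM in control and 16.9 ± 14.4 CPM in the RNAi libraries (log2 fold change -1.60, adjusted p = 0.308). *sqt-3* had 10443, 4673 and 3318 control counts and 6065, 8149 and 53411 in the RNAi libraries, so RNAi C alone was far above the rest (log2 fold change 1.37, adjusted p = 0.471, edgeR's quasi-likelihood test). The summed level of the matched epidermal genes was 436 to 958 CPM in control and 592 to 3068 CPM in the RNAi libraries, the highest in RNAi C. Of the 4 epidermal GATA factors only *elt-6* was highest in RNAi C, at 14.5 CPM against 14.3 CPM in RNAi B. For every 1000 reads on these genes the 4 factors had 38.2, 70.8 and 67.7 reads in control A, B and C and 68.0, 92.5 and 19.2 in the RNAi libraries, and the groups overlapped at both ends.

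Markers of other tissues were read as a check on the make-up of the libraries. Of 13 genes of muscle, neurons, pharynx and germ line that passed the filter, edgeR and DESeq2 called 0, where edgeR had 1 lower and 1 higher and DESeq2 2 lower and 1 higher at an unadjusted p under 0.05, close to the 10.2% lower and 4.33% higher of all genes in edgeR's test. Their median log2 fold change was -0.75 with TMM and -0.29 with library size. The summed level of the 4 body wall muscle genes was 273 to 745 CPM in control and 177 to 432 CPM in the RNAi libraries, with overlap. The part of such differences in tissue make-up in the values of the GATA factors was not tested.

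**Figure D5:**
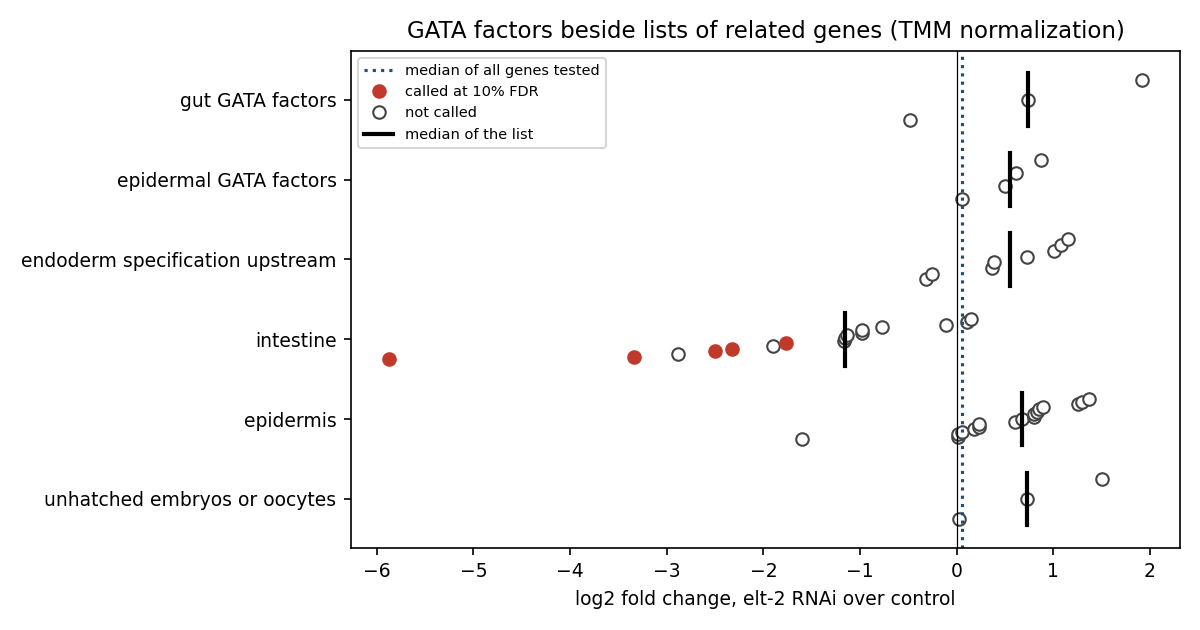
Log2 fold changes (horizontal axis, RNAi over control, TMM) of the tested genes in each list, filled where edgeR called the gene at a false discovery rate of 10%, with a black bar for the median of the list. The 5 filled points are all intestinal genes. The leftmost, *mtl-2*, had 1 read in the 3 RNAi libraries together, so its plotted value depends on the fit's prior count. It was kept by the expression filter only through its control libraries. Of the epidermal and upstream genes, *nhr-23*, *rnt-1*, *grh-1* and *wrm-1* were kept only through their RNAi libraries, so the medians of those lists are not read.

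Last, genes were sought whose levels over the 6 libraries followed those of *elt-2*, *elt-7* and *elt-3* most closely. The measure was the root mean square difference of centred log2(CPM + 1) values, among tested genes within a factor of 2 of the member's mean CPM. For *elt-2* the closest of 3874 genes were C23H4.8, *rom-2* and R04E5.8, at 0.0809, 0.0863 and 0.0885, where the median of those genes was 0.495. *rom-2* encodes a rhomboid-like protein and had 23, 33 and 18 control counts and 18, 27 and 43 in the RNAi libraries. For *elt-7* the closest of 2374 genes was T24H7.2, at 0.0935, with 402, 126 and 248 control counts and 611, 528 and 456 in the RNAi libraries. C52B9.4 and C06B8.7 were next, both at 0.121, and the median was 0.633. For *elt-3* the closest of 3955 genes were *mlc-7*, *npp-14* and *asps-1*, at 0.0485, 0.0773 and 0.0773, with a median of 0.401. The first is a myosin light chain gene and the second encodes a nuclear pore protein. A gene with the same level in every library would score 0.335 against *elt-2*, 0.544 against *elt-7* and 0.156 against *elt-3*. After TMM normalization, on which this measure rests, *elt-3* was steady and is thus close to any steady gene. With 6 libraries and so many genes these likenesses are a description only.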

How the data were processed

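Raw counts per gene, as the authors deposited them, were used for 6 libraries of L1 larvae (3 control, 3 labelled *elt-2* RNAi). The submitters' processing notes name Bowtie 0.12.7. The counting tool, genome build and use of strand are not given in the sources used here. The study's methods describe scaling to all uniquely mapped reads and a rank product, which do not enter the deposited counts. Names and positions came from WBcel235 (Ensembl release 115 and RefSeq), in which 19872 of 20351 identifiers matched.

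Counts were tested with edgeR 4.0.16 in R 4.3.3 (quasi-likelihood test, TMM, expression filter with a minimum of 10 counts, 10063 genes kept), with Benjamini-Hochberg adjustment over all of them and a threshold of 10%. The standard error is the size of the log2 value over the root of F. Exact intervals of counts and shares came from scipy 1.17.1. Totals of 13700707 to 22124319 counts put the floor of 3 counts at 0.136 to 0.219 CPM. A two-sided exact permutation test of 3 against 3 cannot go below 0.1, so none was run. The fit was tested on simulated data.

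Alternatives were library size, DESeq2 size factors, the DESeq2 1.42.0 Wald test, other filters, the replicate letter as a block, a threshold of 0.05 and leaving out each library. The genes named are the 8 members, all genes of the lists of other GATA factors and of genes upstream, the called intestinal genes, the 2 largest epidermal differences and the 3 nearest profiles of *elt-2*, *elt-7* and *elt-3*. *ric-7*, *ceh-51*, *tbx-35*, *cpg-1*, *asp-1*, *act-5*, *ges-1*, *pho-1*, *pgp-1*, *nhr-23*, *rnt-1* and *grh-1* were added after their values were seen. Members and lists were chosen with earlier results of these data known. No sequence is printed.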

Additional observations from a re-analysis of the deposited data

How the results depend on the processing

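Of 83 values of the 7 tested GATA factor genes under the alternatives, 78 kept their direction and their side of the threshold. *end-1* passed it with library size (2.36), the DESeq2 Wald test (1.93) and no filter beyond 1 count (1.96), which brought the GATA factor genes called from 0 to 1 in each, and ranged from 1.65 to 2.27 when a library was left out. *end-1* had no value without RNAi replicate B. With library size and with the Wald test it was again kept by the filter only through its RNAi libraries. *elt-3* changed sign when a library was left out, with a range from -0.10 to 0.18. *elt-2* stayed negative, from -0.74 to -0.09, and *elt-7* positive, from 0.48 to 1.21. No GATA factor gene was called with any library left out. *end-3* was tested only with no filter beyond 1 count, and at its few counts no fold is read from that fit.

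Leaving out a library moved the median of the gut factors, 0.74 with all libraries, from 0.16, without RNAi replicate B, to 1.21, without control replicate A. The former median is over *elt-2* and *elt-7* alone, since *end-1* was not kept. The median of the epidermal factors moved to 0.92 with library size, which also moved the median of all genes to 0.42, and ranged from 0.34 to 0.65 when a library was left out.

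Genes called lower and higher were 149 and 52 with library size, 518 and 90 with DESeq2, 790 and 238 with no filter beyond 1 count and 132 and 7 at an adjusted p under 0.05. A mean count of at least 10 gave 12 higher. Across fits without a library they ranged from 77 (without RNAi replicate B) to 520 (without control replicate A) lower and from 3 to 63 higher. Lower calls made up 92.9% of calls with TMM and 74.1% with library size. The causes were not tested.

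With the replicate block 444 genes were called lower and 51 higher, and no GATA factor gene (*end-1*, adjusted p = 0.104, edgeR). Same-letter libraries had correlations of their deviations, across genes, of 0.35, 0.42 and 0.01, and control C was closest to RNAi A (0.35), so the letters were not taken as pairs.

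At the counts of *elt-2*, *end-1* and *end-3*, between 0 and 44 a library, counting error is wide and adds to the spread between replicates. The standard error of *elt-2*, 0.46, was close to that of *elt-7*, 0.44, which had 68 to 375 counts a library.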
